A study of Mus musculus with 3 samples.

Results

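The 10 genes described here restrain mitogen-activated protein (MAP) kinase signalling, and their transcripts were measured in sorted mouse bone marrow pre-B cells. They are the dual specificity phosphatase genes Dusp1, Dusp2, Dusp4, Dusp5, Dusp6, Dusp7, Dusp10 and Dusp16 and the Sprouty genes Spry1 and Spry2. They were picked by name as feedback inhibitors of the ERK, JNK and p38 kinases, and all 10 were found by Entrez identifier among the 26286 genes of the count table. The RNA came from 3 libraries of 1 group. The mice were bitransgenic for CAG-rtTA3, a broadly driven doxycycline-dependent transactivator, and TRE-GFP-shLuc.1309, which expresses GFP together with a hairpin RNA against luciferase as a control, and they received doxycycline for 3 days. Cells were sorted as GFP+, B220+ and CD25+ and as negative for surface IgM and Kit. Every library carries both transgenes, the induced hairpin and the drug, so no untreated or wild-type level was measured beside these.

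MAP kinases are switched on by phosphorylation of a threonine and a tyrosine in the activation loop, and dual specificity phosphatases remove both phosphates. Dusp1, Dusp2, Dusp4 and Dusp5 encode nuclear enzymes that are transcribed quickly after a stimulus, Dusp6 and Dusp7 encode cytoplasmic enzymes that act on ERK, and Dusp10 and Dusp16 encode enzymes that act on JNK and p38. Sprouty proteins act further up the pathway, downstream of receptor tyrosine kinases. In developing B cells ERK lies downstream of the pre-B cell receptor and the interleukin 7 receptor, and several of these inhibitors are themselves ERK target genes.

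The libraries held 12418054, 12021576 and 32086649 counts in replicates 1, 2 and 3, a 2.67-fold range. Pre-B markers were present: all 11, among them Cd79b, Vpreb3 and Rag2, exceeded 1 RPKM (a count divided by gene length and by depth) in every library, and Kit stood at 0.791 ± 0.327 RPKM (SD, n = 3). Whether different animals gave the different libraries is not in the labels, so p-values measure only the spread among these samples. Replicate 1 had 22609 counts of Xist against 94 and 70 in the others, and between 0 and 1 counts of each of 4 Y-linked genes that had 454 to 4881 in the others, so it cannot come from the same mouse as either of them. The spread between replicates 2 and 3 may be technical. Between 3145 and 5590 genes differed in each pair of libraries beyond counting noise, so no library is a copy of another. Replicate 3 is both the deepest library and the only one processed with CASAVA 1.8.0 instead of 1.8.2, per the labels, so its depth, its software and its cells cannot be told apart.

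The promoters of 4 members are shown so that their letters can be read side by side: the nuclear inducible Dusp1, Dusp2 and Dusp5, and the cytoplasmic Dusp6. They were picked after the levels were seen, and no relation between a promoter's letters and a level or its spread was tested. Each is the 250 bases before the annotated start site, from RefSeq on build GRCm38.p6, written 5′ to 3′ on the gene's strand. The windows are chr17:26508473-26508722 on the minus strand for Dusp1, chr2:127335909-127336158 on the plus strand for Dusp2, chr19:53528895-53529144 on the plus strand for Dusp5 and chr10:99262981-99263230 on the plus strand for Dusp6. Capitals mark matches to the motifs searched.
Dusp1: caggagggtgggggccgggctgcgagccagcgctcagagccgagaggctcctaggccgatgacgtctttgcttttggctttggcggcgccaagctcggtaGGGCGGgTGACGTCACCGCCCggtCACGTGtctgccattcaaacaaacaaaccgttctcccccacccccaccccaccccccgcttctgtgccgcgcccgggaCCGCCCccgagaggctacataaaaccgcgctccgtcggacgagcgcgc
Dusp2: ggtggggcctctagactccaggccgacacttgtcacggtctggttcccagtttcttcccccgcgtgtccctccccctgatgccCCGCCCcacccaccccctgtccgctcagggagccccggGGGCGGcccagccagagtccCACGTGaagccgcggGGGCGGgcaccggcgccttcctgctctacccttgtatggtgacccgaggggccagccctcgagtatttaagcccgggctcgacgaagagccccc
Dusp5: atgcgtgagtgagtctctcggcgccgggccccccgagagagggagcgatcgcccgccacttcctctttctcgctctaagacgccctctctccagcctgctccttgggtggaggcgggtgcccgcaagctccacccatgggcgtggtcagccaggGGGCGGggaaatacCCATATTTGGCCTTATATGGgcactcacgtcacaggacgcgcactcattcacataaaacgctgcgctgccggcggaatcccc
Dusp6: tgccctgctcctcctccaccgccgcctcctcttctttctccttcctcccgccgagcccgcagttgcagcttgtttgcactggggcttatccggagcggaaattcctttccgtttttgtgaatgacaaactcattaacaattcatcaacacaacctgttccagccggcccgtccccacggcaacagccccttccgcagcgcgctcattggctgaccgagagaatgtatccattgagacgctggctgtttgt

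The Dusp1 window holds the cyclic AMP response element (CRE) TGACGTCA, 143 to 136 bases before the start, and an E-box, CACGTG, 126 to 121 bases before it. A CRE is found in 1.55% of all 32851 RefSeq promoter windows of this length and an E-box in 6.02%. The Dusp2 window holds an E-box 109 to 104 bases before the start and no CRE. The Dusp5 window holds a pair of adjoining CArG boxes, the sequence bound by serum response factor, from 82 to 63 bases before the start, and 1.47% of all windows hold at least 1. The remaining capitals are Sp1 sites, GGGCGG on either strand, which 32.7% of windows hold; in Dusp1 one of them adjoins the last bases of the CRE. The Dusp6 window holds none of the motifs searched.

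Of the 10 members, 9 had a window in the table, and Dusp4 was not analysed here. Among those 9, 1 held a CRE, 2 an E-box, 1 a CArG box and 6 an Sp1 site. None held the AP-1 site TGANTCA (6.75% of all windows), the ETS motif CCGGAA (12.03%), the forkhead site GTAAACA (3.17%) or the TATA box TATAAA (12.37%). The ETS motif was searched in that form only, so shorter GGAA matches were not counted. Both strands were searched, and a match is a description of letters, not of binding. GC content ran from 56.4% in Dusp6 to 77.2% in Dusp7, against a median of 52.4% over all windows.

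**Figure D1:**
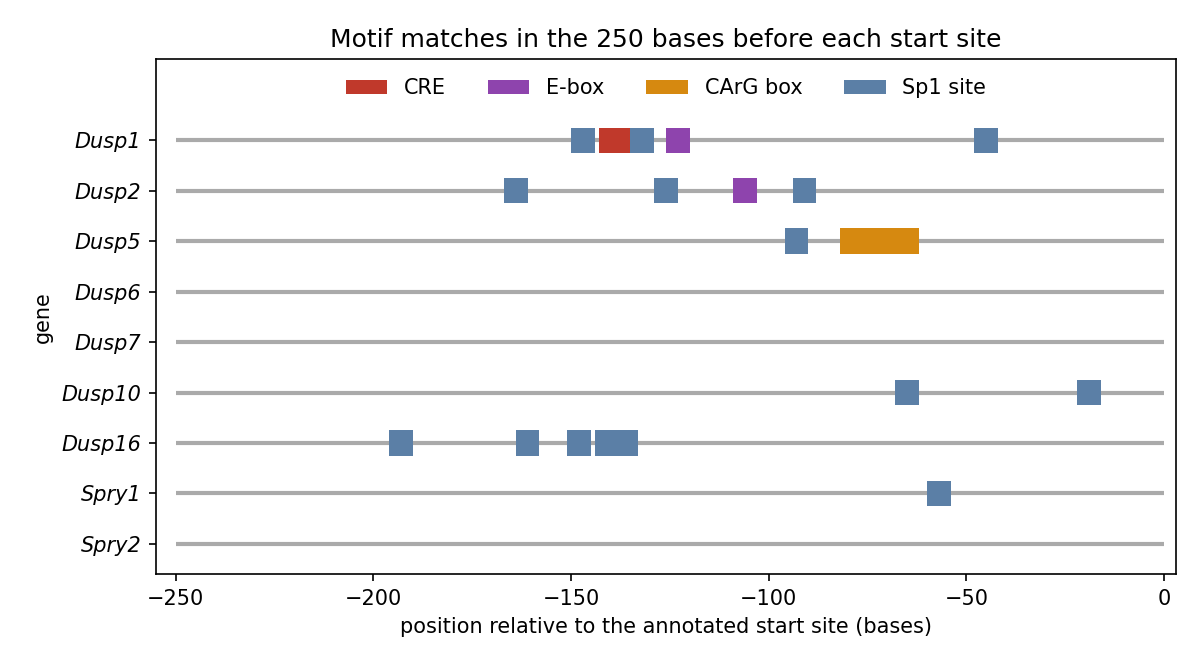
Positions of motif matches in the 250 bases before the annotated start site of the 9 genes with a RefSeq window (horizontal axis, bases relative to the start; vertical axis, gene; coloured blocks, matches on either strand). Only Dusp1 holds a CRE and only Dusp5 holds CArG boxes, while Dusp6, Dusp7 and Spry2 hold none of the motifs searched.

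Of the 10 members, 8 had 1 RPKM or more in each of the libraries, against 42.4% of all 26286 genes in the table. The 2 below it were Spry1 and Dusp4. The median member level was 7.65 RPKM, beside 5.46 RPKM for the 17423 genes with a count. The members spanned more than 3 orders of magnitude on the RPKM scale, from 142.5 for Dusp2 to 0.0906 for Dusp4.

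Among the nuclear inducible phosphatases, Dusp2, which encodes a phosphatase first known from activated lymphocytes, was by far the most abundant. It had 2532, 2329 and 9448 counts in replicates 1, 2 and 3, or levels of 126.0, 120.1 and 181.5 RPKM. Replicate 3 was the high library and the other two lay close together. Its mean level of 142.5 ± 33.9 RPKM (SD, n = 3) was above that of 97.4% of the genes with a count.

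Dusp5, whose product is selective for ERK in the nucleus, came second. Its counts of 695, 659 and 2013 gave levels of 48.4, 47.6 and 54.2 RPKM, a mean of 50.1 ± 3.57 RPKM. Replicate 3 was again the highest, but only 1.14-fold above replicate 2 in CPM (95% interval for counting error 1.04 to 1.24). CPM are counts scaled to the normalised library size, without division by gene length. GENCODE M21 places an antisense gene over 547 bases of a Dusp5 exon, and the sources used here do not say whether counting used strand, so reads from the 2 strands cannot be told apart.

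Dusp1, which encodes the phosphatase MKP-1 and acts on p38 and JNK as well as ERK, was lower and far less even. Its 181, 105 and 989 counts corresponded to levels of 7.503, 4.512 and 15.8 RPKM. Replicate 3 stood well above the others and replicate 2 lowest, and their CPM differed 3.51-fold (95% interval for counting error 2.87 to 4.33). The mean level was 9.28 ± 5.86 RPKM, with an SD that was 63.2% of the mean, the highest share of any member. Without replicate 3 the mean was 6.01 RPKM. In GENCODE M21 an exon of Dusp1 shares 11 bases with one of Ergic1 on the opposite strand.

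Dusp4, which encodes another nuclear phosphatase of ERK and JNK, was close to the limit of these libraries. It had 2, 3 and 8 counts, or 0.0663, 0.103 and 0.102 RPKM, with 95% Poisson intervals of 0.00803 to 0.240, 0.0213 to 0.301 and 0.0442 to 0.202. The 3 intervals overlap, and a difference between the libraries was not detectable at this depth.

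Of the cytoplasmic ERK phosphatases, Dusp6 was the abundant one and the most even of all members. Its 1352, 1361 and 3482 counts gave levels of 38.9, 40.6 and 38.7 RPKM, a mean of 39.4 ± 1.05 RPKM. The highest and lowest libraries differed 1.05-fold in CPM, with a counting interval of 0.985 to 1.12 that includes equality. Dusp6 is a well-known ERK target gene as well as an ERK inhibitor.

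Dusp7, the related cytoplasmic ERK phosphatase, had 142, 126 and 488 counts, or 3.56, 3.27 and 4.72 RPKM, a mean of 3.85 ± 0.767 RPKM. Replicate 3 was the highest library, 1.44-fold above replicate 2 in CPM (1.18 to 1.77).

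The JNK and p38 phosphatases were low and did not share an order of libraries. Dusp10 had 185, 115 and 467 counts, or 5.49, 3.54 and 5.35 RPKM, with replicate 2 low and the others close together. Dusp16 had 352, 473 and 781 counts, or 5.55, 7.73 and 4.75 RPKM, with replicate 2 high. Their means were 4.79 ± 1.09 RPKM for Dusp10 and 6.01 ± 1.54 RPKM for Dusp16.

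Of the Sprouty genes, Spry2 carried nearly all of the signal. It had 400, 389 and 890 counts, or 15.4, 15.6 and 13.2 RPKM, a mean of 14.7 ± 1.29 RPKM, with replicate 3 slightly below the other libraries. Spry1 had 30, 16 and 97 counts, or 0.970, 0.536 and 1.21 RPKM, with replicate 3 high and replicate 2 low. The 95% counting intervals of Spry1 in replicate 2, 0.306 to 0.871 RPKM, and replicate 3, 0.982 to 1.48 RPKM, did not overlap. A transcript to be experimentally checked overlaps 577 bases of a Spry1 exon on the opposite strand in GENCODE M21.

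**Figure D2:**
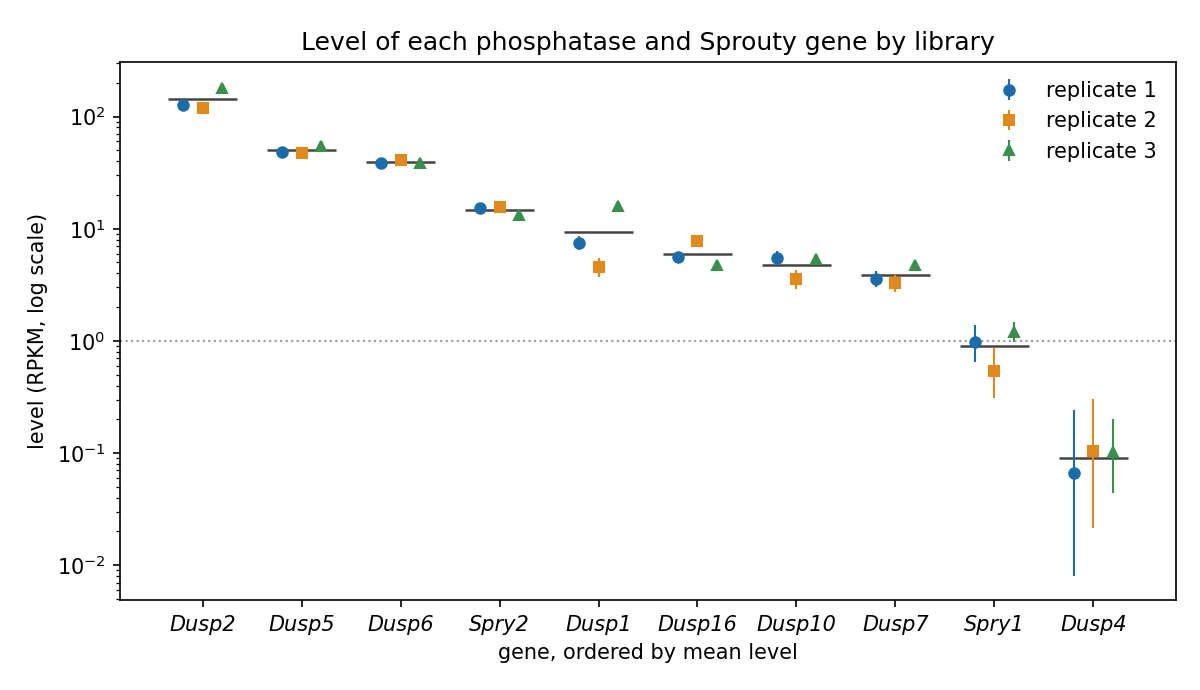
Level of each of the 10 genes in RPKM on a log axis, 1 marker per library with its 95% Poisson interval for counting error, a horizontal bar at the mean of the 3 libraries and a dotted line at 1 RPKM. Dusp2, Dusp5 and Dusp6 lie highest, with means of 142.5, 50.1 and 39.4 RPKM, and Spry1 and Dusp4 lie below 1 RPKM on average.

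Dusp2 thus accounted for most of the MAP kinase phosphatase transcripts per length. In the summed RPKM of the 8 phosphatase members with Dusp8 and Dusp9, which encode further catalytically active enzymes of the class, Dusp2 made up 53.4%, 52.7% and 59.4% in replicates 1, 2 and 3. Dusp5 made up 17.7% to 20.9% and Dusp6 12.7% to 17.8%. Dusp1 ranged from 1.98% in replicate 2 to 5.18% in replicate 3. Dusp8, a phosphatase of JNK and p38, and Dusp9, a cytoplasmic ERK phosphatase, were near the limit at 0.184 ± 0.135 and 0.166 ± 0.055 RPKM, from 3 to 10 counts per library.

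**Figure D3:**
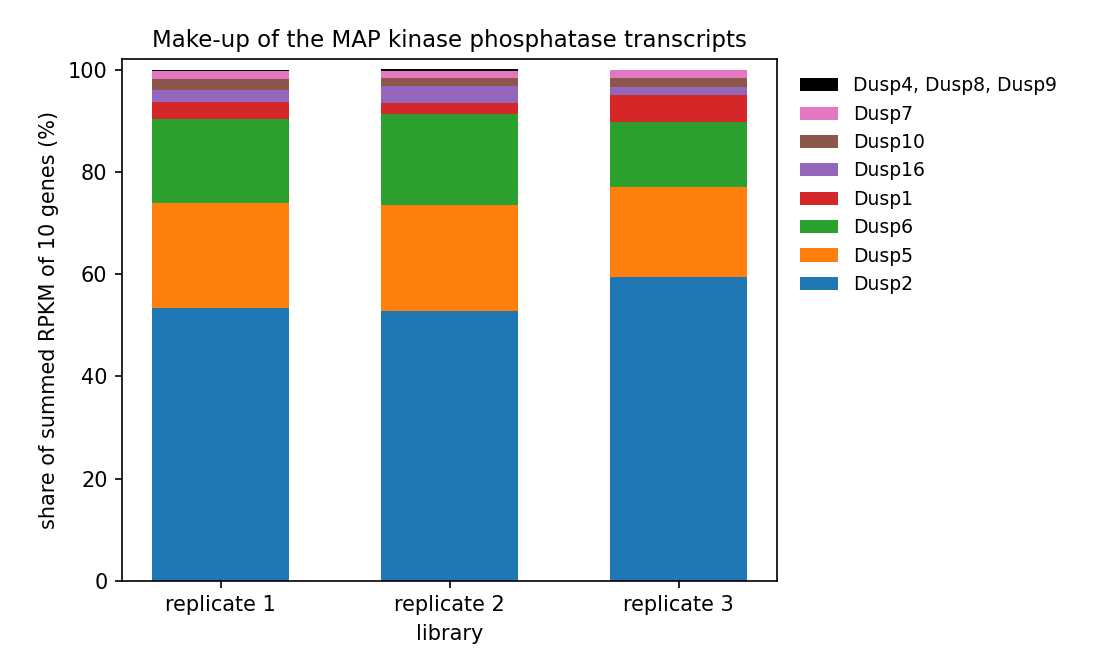
Share of each gene in the summed RPKM of 10 MAP kinase phosphatase genes (vertical axis, percent) in each library (horizontal axis), as stacked bars. Dusp2 takes 52.7% to 59.4% of the sum, and Dusp1 takes its largest share, 5.18%, in replicate 3.

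In the 5 pairs compared within roles, 1 gene exceeded the other in all 3 libraries, except among the JNK and p38 phosphatases. The nuclear inducible genes were paired only as Dusp1 with Dusp2 and Dusp4 with Dusp5. Differences were taken within each library on the log2(RPKM + 0.5) scale and given as mean ± SD (n = 3); the exact two-sided sign-flip test cannot go below p = 0.25 with 3 libraries, so none of the 5 pairs could pass. Dusp1 minus Dusp2 was -4.02 ± 0.56, so that Dusp2 stood 16.2-fold higher (exact sign-flip p = 0.25, Benjamini-Hochberg adjusted over the 5 pairs 0.3125). Dusp6 minus Dusp7 was 3.21 ± 0.28, or 9.26-fold, and Spry1 minus Spry2 was -3.47 ± 0.47, or 11.1-fold in favour of Spry2, with the same p and adjusted p. Dusp4 minus Dusp5 was -6.42 ± 0.09 with the same p and adjusted p, but with so few counts of Dusp4 its size depends on the pseudocount, at -8.04 with 0.1 and -5.55 with 1. Dusp10 minus Dusp16 was -0.30 ± 0.64 and changed sign between libraries, at -0.01, -1.03 and 0.16 in replicates 1, 2 and 3 (exact sign-flip p = 0.75, adjusted 0.75). In CPM, without division by length, the same difference was -1.20 and had 1 sign in all 3 libraries (exact sign-flip p = 0.25).

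Ordered by mean level, the genes ran Dusp2, Dusp5, Dusp6, Spry2, Dusp1, Dusp16, Dusp10, Dusp7, Spry1 and Dusp4. Of the 9 neighbouring pairs in that order, 6 kept 1 sign in every library. The closest of these were Dusp5 over Dusp6, by 0.34 ± 0.13 on the log2(RPKM + 0.5) scale, and Dusp10 over Dusp7, by 0.28 ± 0.25. The middle of the order was not fixed: Spry2 over Dusp1 (0.81 ± 0.98), Dusp1 over Dusp16 (0.44 ± 1.18) and Dusp16 over Dusp10 (0.30 ± 0.64) each differed by less than the SD between libraries. In replicate 3 Dusp1 exceeded Spry2, while in replicate 2 it lay below Dusp16.

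Spread between the libraries beyond counting noise was tested gene by gene by chi-square, adjusted by the Benjamini-Hochberg method over the 12147 genes kept by a filter on low counts. Of the 9 members that the filter kept (Dusp4 was left out), 8 passed at 0.05, against 54.6% of all genes tested. The exception was Dusp6 (adjusted p = 0.387). Dusp2 (adjusted p = 2.46e-105 by chi-square), Dusp1 (2.38e-49) and Dusp16 (4.45e-15) had the smallest adjusted p. Among the 8 that passed, Spry1 (0.0159) and Spry2 (0.0133) had the largest. These p-values depend on the number of counts as well as on the size of the spread. Without replicate 3 the count was 3 of 9, namely Dusp1, Dusp10 and Dusp16, where 25.7% of all genes passed. It was 8 of 9 without replicate 1 (43.3% of all genes) and 6 of 9 without replicate 2 (32.9%). With replicate 3 thinned to the depth of the smallest library it was 5 of 9 (46.4% of all genes).

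The size of the spread set Dusp1 apart in description. From the lowest to the highest library its log2 CPM covered 1.80, a wider range than that of 99.7% of the genes tested, where the median range was 0.27. Spry1 covered 1.11 (97.7%), from few counts, and Dusp16 0.70 (90.0%). At the other end Dusp6 covered 0.07, wider than only 6.10% of genes, and Dusp5 0.19 (32.5%).

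Against the spread usual for their abundance, no member stood out in an intercept-only fit of edgeR's quasi-likelihood model (0 of 9 after adjustment, 3 at an unadjusted p under 0.05, namely Dusp1, Dusp2 and Dusp16). In that test 0.0165% of all genes passed after adjustment and 5.31% had an unadjusted p under 0.05. The smallest adjusted p among the members was 0.532, for Dusp1.

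**Figure D4:**
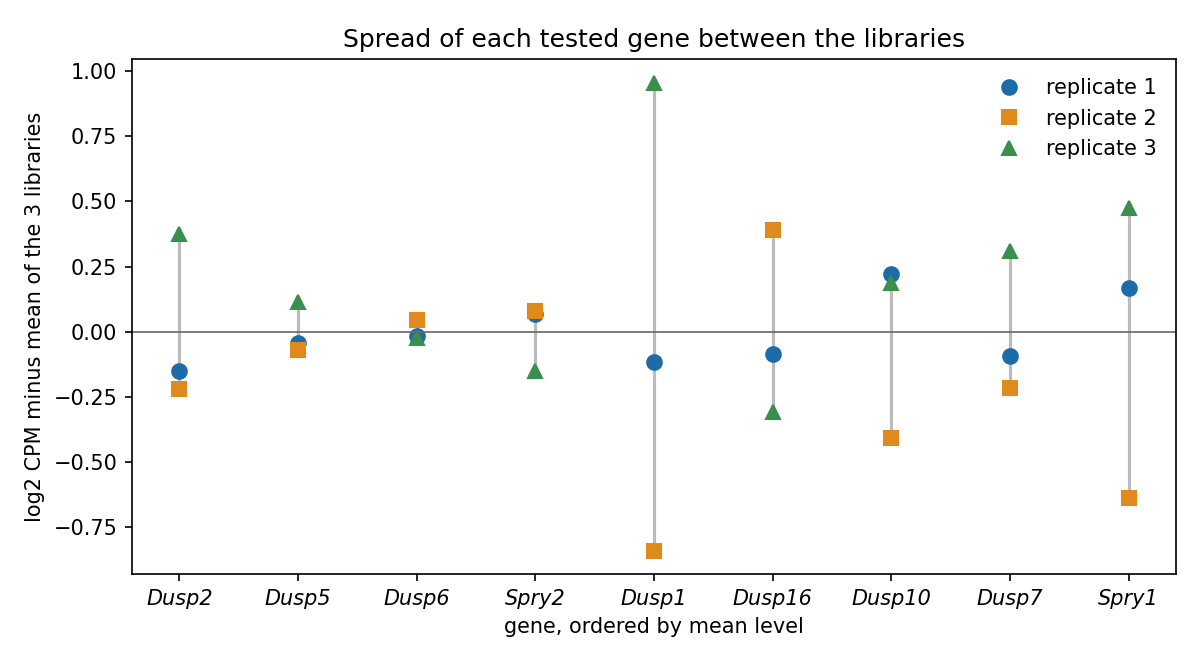
Log2 CPM of each library minus the mean of the 3 (vertical axis) for the 9 members tested (horizontal axis, ordered by mean level), 1 marker per library. Dusp1 spans the widest range, 1.80, with replicate 3 highest and replicate 2 lowest, and Dusp6 the narrowest, 0.07.

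Replicate 3 was then set against replicates 1 and 2, the split given by the CASAVA version in the labels. With 1 library on one side this compares that library with the others and is no biological comparison. Of the 9 members tested, 5 were highest in replicate 3 (Dusp1, Dusp2, Dusp5, Dusp7 and Spry1), or 55.6%, against 35.1% of all genes tested. Lowest in replicate 2 were 6 of 9 members, against 36.3% of all genes. Another 3 were highest in replicate 2 (Dusp6, Spry2 and Dusp16), against 36.5% of all genes, and the same 3 were lowest in replicate 3, against 36.1%.

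None of the 9 passed the adjusted threshold in edgeR's quasi-likelihood test, where 0.0494% of all genes were called higher and 0.00823% lower. Dusp1 had the largest log2 fold change, 1.40 ± 0.27 (SE), or 2.63-fold (edgeR unadjusted p = 0.00108, adjusted p = 0.218). Dusp2 followed at an unadjusted p of 0.00131, with 0.56 ± 0.11, or 1.48-fold (edgeR adjusted p = 0.221). These were the 2 members at an unadjusted p under 0.05, where 5.02% of all genes were higher in replicate 3 and 4.66% lower. DESeq2's Wald test called 1 member, Dusp1 (log2 fold change 1.40, adjusted p = 0.0338), among 0.173% of all genes called higher; the adjusted p of Dusp1 lay between 0.0338 and 0.623 over the 4 alternatives fitted with all 3 libraries.

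The remaining members were smaller or went the other way. Spry1 had a log2 fold change of 0.68 ± 0.37 (edgeR adjusted p = 0.611), Dusp7 0.47 ± 0.21 (0.527), Dusp10 0.24 ± 0.27 (0.816) and Dusp5 0.17 ± 0.13 (0.724). Dusp6 was at -0.04 ± 0.12 (edgeR adjusted p = 0.941), Spry2 at -0.23 ± 0.16 (0.699) and Dusp16 at -0.48 ± 0.22 (0.545). For Dusp10 the sign rested on replicate 2, since replicate 3 minus replicate 1 alone was -0.04. The median of the 9 was 0.24, against -0.01 for all genes tested.

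The kinase cascades that these proteins restrain are described next, from lists of their genes. Of 15 genes of the ERK cascade, 14 exceeded 1 RPKM in every library, among them the ERK kinase gene Map2k2 (35.7 ± 1.35 RPKM), with the scaffold gene Ksr2 lowest (0.024 ± 0.026 RPKM). In edgeR's replicate 3 test 0 of the 14 tested passed in either direction, with 0 at an unadjusted p under 0.05 and 0 by DESeq2. The median log2 fold change was 0.07. By chi-square, 8 of the 14 varied beyond counting noise, against 54.6% of all genes tested.

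Of 10 genes of the JNK cascade, 7 exceeded 1 RPKM in every library, led by Map3k1 (68.3 ± 7.94 RPKM), Map2k7 (40.1 ± 2.72 RPKM) and the JNK2 gene Mapk9 (23.5 ± 2.74 RPKM). The scaffold gene Mapk8ip2 had 0 counts, a limit of 0.0705 RPKM at 3 counts in the smallest library. Of 11 genes of the p38 cascade, 9 exceeded 1 RPKM, led by Mapkapk2, a kinase activated by p38 (62.9 ± 2.91 RPKM), the p38 alpha gene Mapk14 (41.4 ± 3.93 RPKM) and Map2k3 (27.9 ± 3.93 RPKM), with Mapk12 lowest at 0.511 ± 0.188 RPKM. In each of these lists 0 genes passed edgeR's replicate 3 test, 0 had an unadjusted p under 0.05 and 0 passed DESeq2, and the medians were -0.14 and 0.10. By chi-square, 5 of 7 JNK cascade genes and 5 of 10 p38 cascade genes varied beyond counting noise, against the same 54.6%. On the per-length scale Dusp2 lay above every one of these kinase genes in each library.

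Of the other Sprouty and Spred genes, which restrain the same step of the pathway, 2 of 5 exceeded 1 RPKM in every library, Spred1 (3.35 ± 0.151 RPKM) and Spred2 (2.32 ± 0.530 RPKM). Spred3 stood at 0.378 ± 0.057 RPKM, and Spry3 had 0 counts, which allows up to 0.0569 RPKM. None of the 3 tested passed edgeR's replicate 3 test, with 0 at an unadjusted p under 0.05 and 0 by DESeq2.

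Most tested immediate early and heat shock genes, which respond quickly to stimuli, were highest in replicate 3, as were Dusp1, Dusp2, Dusp5, Dusp7 and Spry1. The share of all tested genes highest there was 35.1%. Of 20 immediate early genes 14 were tested, and 12 of these were highest in replicate 3; 0 passed edgeR's replicate 3 test, 9 had an unadjusted p under 0.05, all higher, and DESeq2 called 1, Jund. Their median log2 fold change was 0.75. Btg2 and Ier3 went the other way, highest in replicate 2 and lowest in replicate 3, at -0.11 and -0.27. Btg2 was the most abundant (241 ± 13.2 RPKM), followed by Zfp36, which encodes an mRNA decay factor (188 ± 37.4 RPKM), and the AP-1 subunit gene Jund (151 ± 48.8 RPKM), while Atf3 was lowest (0.112 ± 0.065 RPKM). All 5 heat shock genes tested were highest in replicate 3 and lowest in replicate 2, with a median of 0.57 (0 passed edgeR's test, 3 had an unadjusted p under 0.05, 0 passed DESeq2). That order of libraries was held by 21.9% of all genes tested. The heat shock list was led by Hspa8 at 107 ± 34.8 RPKM.

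By contrast, a list of factors that transmit ERK signals to promoters, mostly ETS and serum response factors, had a median log2 fold change of -0.04. Of the 9 tested, 3 were highest in replicate 3 and 4 were lowest there. Srf, the serum response factor gene, was among the 3, with a log2 fold change of 0.31. Of 11 genes 9 exceeded 1 RPKM in every library, led by Ets1 (171 ± 7.76 RPKM), Elk4 (59.1 ± 5.91 RPKM) and Creb1 (36.6 ± 1.46 RPKM), and Etv4 was lowest at 0.021 ± 0.019 RPKM. None of the 9 tested passed edgeR's replicate 3 test, 1 had an unadjusted p under 0.05 and 0 passed DESeq2.

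**Figure D5:**
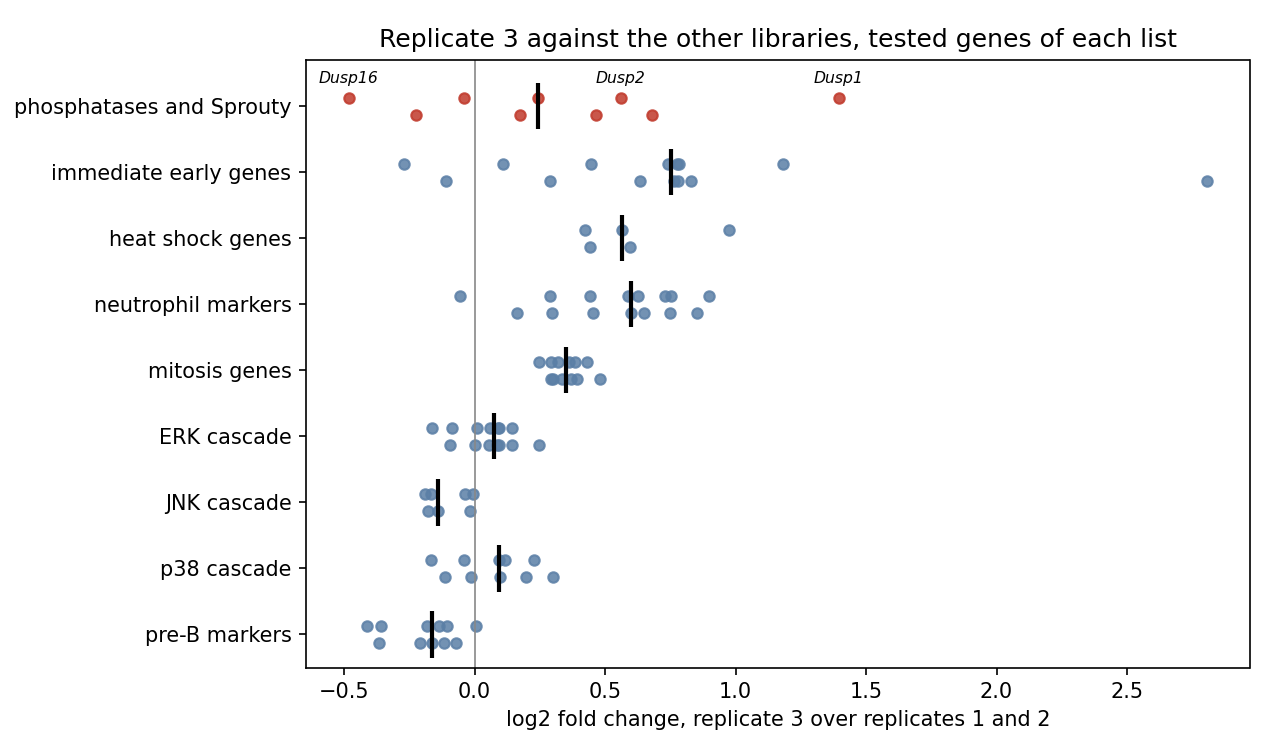
Log2 fold change of replicate 3 over replicates 1 and 2 (horizontal axis) for the tested genes of 9 lists (vertical axis), 1 point per gene with a black bar at the list's median. Dusp1 stands at 1.40 and Dusp2 at 0.56. The medians are 0.75 for the immediate early genes, 0.57 for heat shock genes and 0.60 for neutrophil markers. They are 0.35 for mitosis genes and 0.07 for the ERK cascade.

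Summed markers of neutrophils, of monocytes and macrophages, and of basophils and mast cells were also highest in replicate 3. The sums for T and NK cells and for erythroid cells were not. Each sum is weighted towards its most abundant genes. In bulk RNA fewer cells of a type and less RNA per cell cannot be told apart. The summed level of 15 neutrophil markers, all above 1 RPKM in every library, was 1383, 1664 and 2454 RPKM in replicates 1, 2 and 3. Of the 15, 12 were highest in replicate 3, against 35.1% of all genes tested. None passed edgeR's replicate 3 test, 10 had an unadjusted p under 0.05, all higher, and DESeq2 called 3. The sum in replicate 3 was 1.61 times the mean of the others, against 2.63 for the CPM of Dusp1 and 1.48 for Dusp2. Between the other libraries the neutrophil sum was lower in replicate 1, where the Dusp1 level was higher (7.503 against 4.512 RPKM). The part of neutrophil RNA in the levels of Dusp1 and Dusp2 was not tested.

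For 10 monocyte and macrophage markers the summed level was 194 to 271 RPKM. Most of it was Lyz2, at 155.7, 186.3 and 227.5 RPKM in replicates 1, 2 and 3. Of the 8 tested, 7 were highest in replicate 3, against 35.1% of all genes tested. The other, Ms4a6c, was lowest there, at 11.25, 14.14 and 6.903 RPKM. For 5 basophil and mast cell markers the summed levels were 3.38, 7.06 and 23.5 RPKM. Of the latter 1 gene was tested, the serine protease gene Prss34, with a log2 fold change in replicate 3 of 2.24 ± 0.28 (SE; edgeR unadjusted p = 6.09e-05, adjusted p = 0.0617), and DESeq2 called it higher. The sums in replicates 1, 2 and 3 were 14.0, 16.3 and 15.95 RPKM for 11 T and NK cell markers, highest in replicate 2. Most of each was Lck, at 7.812, 9.478 and 9.318 RPKM. Of the 3 tested, Il2rb was highest in replicate 3 and Lck and Klrb1c in replicate 2. For 6 erythroid markers the sums were 19.72, 16.9 and 19.52 RPKM, highest in replicate 1. Most of each was Car2, at 14.03, 11.61 and 14.77 RPKM. Of the 2 tested, Car2 was highest in replicate 3 and Hba-a1 in replicate 2. No marker of these lists was at 0 in every library, but Cd14 and Epor had 0 counts in replicate 2. Mitosis genes, which mark dividing cells, summed to 1420, 1134 and 1617 RPKM, with all 12 highest in replicate 3 and lowest in replicate 2, as were Dusp1, Dusp2, Dusp5, Dusp7 and Spry1. The share of all tested genes with that order was 21.9%. None of the 12 passed edgeR's replicate 3 test, 5 had an unadjusted p under 0.05, all higher, and 0 passed DESeq2. Of 8 monocyte and macrophage markers tested, 0 passed edgeR's test, 3 had an unadjusted p under 0.05, 2 higher and 1 lower, and 0 passed DESeq2. The part of these cells and of cell division in the levels of the phosphatase genes was not tested.

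The pre-B markers ran the other way, with a median log2 fold change of -0.16. Lowest in replicate 3 were 9 of 11, against 36.1% of all genes tested. Highest in replicate 2 were also 9 of 11, against 36.5% of all genes tested. Their summed level was 5038, 5185 and 4568 RPKM. None passed edgeR's replicate 3 test, 2 had an unadjusted p under 0.05 and 0 passed DESeq2.

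The genes most like Dusp1, the member of widest range, were sought by the smallest Euclidean distance of log2 CPM deviations over the 3 libraries. Of the 12138 tested genes that are not members, the 4 closest were the pseudogene Gm10259 (distance 0.07), Angptl4, which encodes an inhibitor of lipoprotein lipase (0.09), the pseudogene Gm3550 (0.10) and the 28S ribosomal RNA gene Rn28s1 (0.15). Angptl4 stood at 3.21, 1.75 and 6.60 RPKM and Rn28s1 at 209, 118 and 378.5 RPKM in replicates 1, 2 and 3. With 3 points per gene this likeness describes the libraries only, and whether ribosomal RNA carried over into a library had a part in the Dusp1 levels was not tested.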

How the data were processed

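RNA-seq measured transcript levels in 3 samples from a single group. Raw counts of reads for each Entrez gene, beside the gene's length, are what the authors deposited; reads were summarised with featureCounts on mm9, with CASAVA 1.8.2 (replicates 1 and 2) or 1.8.0 (replicate 3), per the submitters' processing notes and the labels. The sources used here do not give the aligner, the annotation or the strand setting. Symbols came from RefSeq for GRCm38.p6 by Entrez identifier (24176 of 26286 matched), and all 176 list genes were found. Overlapping exons were read from GENCODE M21.

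Counts were scaled by TMM (factors 1.0003, 0.99685 and 1.0028) on the 12147 genes kept by filterByExpr (minimum count 10, minimum total 15), in R 4.3.3 with edgeR 4.0.16 and limma 3.58.1; log2 CPM used a prior count of 2. Tests were a chi-square test against Poisson counts, an F test setting a gene's quasi-dispersion beside the fitted prior (5.84 prior degrees of freedom) and glmQLFit with glmQLFTest. The standard error of a log2 fold change was derived from its F statistic. DESeq2 1.42.0 was an alternative, as were other scaling, no filter, a robust fit, TPM, CPM, other pseudocounts, thinning and leaving out each replicate. Benjamini-Hochberg adjusted p-values under 0.05 were called, and single differences used an exact sign-flip test. The tests were tried on simulated data. Intervals are exact 95% Poisson or binomial intervals and, like the limit of 3 counts, cover counting error only.

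The members and lists were chosen with earlier results of these data known. Named are all members, up to 3 of the highest and the lowest gene of each list, and the 4 genes nearest to the member of widest range. Jund, Ier3, Srf, Ms4a6c, Il2rb, the genes of small counts and the sex-linked genes were named after their values were seen. Some genes of the ERK cascade list are counted in it but not reported here by name. Figures were drawn with matplotlib 3.10.9.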

Additional observations from a re-analysis of the deposited data

How the results depend on the processing

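The number of members at 1 RPKM or more in every library stayed between 8 and 9 over the alternatives run. The 5 differences within roles kept their sign with other pseudocounts and with CPM, although Dusp10 minus Dusp16 moved from -0.295 to -1.204 with CPM; leaving out 1 replicate, Dusp10 minus Dusp16 ranged from -0.520 to 0.071, the positive value without replicate 2, and the other 4 kept their sign. The replicate 3 log2 fold change of Dusp10 ranged from -0.037 (without replicate 2) to 0.591, values of 1 library against 1 with no test. Leaving out 1 replicate, the chi-square test called 3 to 8 members and 3145 to 5590 of all genes (6627 with all libraries); with replicate 3 thinned it called 5 members and 5613 genes. The variability test called 0 members under every alternative run, and 2 genes with all libraries, 9 without the filter, 0 with a robust fit and 2 to 48 with 1 replicate left out. Replicate 3 was called higher for 6 genes and lower for 1; the counts were 23 and 5 with library totals only, 0 and 0 without the filter, and 21 and 15 with DESeq2, which called 1 member, Dusp1. Apart from the left-out libraries and the smaller depth, the causes were not tested. Leaving out a replicate for the order of the members was chosen after seeing the data. No paired analysis was possible because the labels give a single group. The low counts of Dusp4 and Spry1 limit what can be said of their spread.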

Other observations

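The atypical dual specificity phosphatases, which lack the kinase-binding domain of the MAP kinase phosphatases, were measured in the same libraries. Of 13 genes 8 exceeded 1 RPKM in every library. Dusp11, whose product acts on the phosphates of RNA ends, was the most abundant, at 61.3 ± 1.87 RPKM (SD, n = 3), above Dusp5 and Dusp6 and below Dusp2. Dusp22 stood at 12.3 ± 2.65 RPKM and Styx, which encodes a catalytically inactive relative, at 10.5 ± 0.784 RPKM. Dusp15 had 0 counts, which allows up to 0.0746 RPKM, and Dusp13 had 0 counts as well. Of the 8 genes tested, 6 varied beyond counting noise (chi-square, adjusted), against 54.6% of all genes, and none passed edgeR's replicate 3 test (1 at an unadjusted p under 0.05, the lower Dusp22, and 0 by DESeq2). Their summed level was 103 to 109 RPKM beside 182.0, 172 and 252 RPKM for the nuclear inducible phosphatase genes in replicates 1, 2 and 3.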
